A study of Mus musculus with 12 samples.

Results

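The comparison described here is of female end-point tumours with and without an added conditional Yap1 allele. It was chosen by the labels, as the 3 libraries of the group YSGr female (numbered 10, 11 and 12) against the 3 of the group SG female (4, 5 and 6), which makes 6 of the 12 libraries of the study. The SG group has the genotype fSMO-M2;hGFAPcre and the YSGr group fYap1;fSMO-M2;hGFAPcre, and the other 6 libraries are males of the same genotypes. Both female groups therefore carry SMO-M2, an active form of the Hedgehog signal transducer Smoothened, and Cre recombinase driven by the human GFAP promoter. That promoter is active in neural stem and progenitor cells of the developing brain, and not in vessels, meninges or immune cells. The tissue is labelled MB, for medulloblastoma. The labels call the YSGr mice rescued without saying in which respect, and they give no age beyond the end point, no strain, litter or batch, and no statement that the libraries came from separate animals. Each p-value below therefore reflects only how far these libraries differ among themselves, and part of that spread may be technical. The series' title names sex differences in the role of Yap1 in immune evasion as the question.

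Yap1 is a transcriptional coactivator without a DNA-binding domain of its own. The kinases of the Hippo pathway, Stk3 and Stk4 (Mst) and Lats1 and Lats2, phosphorylate it and its paralogue Taz, the product of Wwtr1, and keep both out of the nucleus. When they enter, they bind TEAD factors and drive genes of growth, adhesion and matrix. Medulloblastoma of the Hedgehog class arises from granule neuron progenitors of the cerebellum, whose division depends on Smoothened and the Gli factors, and Yap1 is a known Hedgehog-induced gene in these cells.

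Total RNA was sequenced in bulk, and the values are log2 CPM, reads per gene scaled to the size of the library, with a small prior count added before the log2. Sequencing gave 8854770 to 9476948 estimated reads per female library, and 3 reads corresponded to 0.304 to 0.333 CPM. Tests with limma covered the 13722 genes whose log2 CPM exceeded 0 in 3 or more of the 6 libraries, and a gene is said to have risen, fallen or passed the threshold when its adjusted p (limma, Benjamini-Hochberg over all genes tested) was below 0.05. A gene at or below 0 in all libraries of 1 group was tested only if it exceeded 0 in the other group. Counts among tested members therefore lean towards rises in lists near the floor in SG. Fold changes are log2 differences, YSGr minus SG. Sums over 4 Y-linked genes gave 0 or 1 read in each of the 6 libraries, against 895 to 1705 in the male libraries. The first principal component of the 6 libraries, 45.6% of the variance, separated the groups, with SG at -30.8 to -25.3 and YSGr at 21.5 to 38.8. The second, 31.0%, spread the YSGr libraries, from -47.9 in YSGr 11 to 32.5 in YSGr 12. Genes varied more among the YSGr libraries, with a median SD of 0.23 against 0.10 log2 units in SG. YSGr 11 also stood apart in a list of Purkinje cell and cerebellar interneuron genes, whose summed level was 1662 CPM there and 456 to 735 CPM in the other 5 libraries. The share of such neurons in that sample, and its part in the results, was not tested beyond fits without that library.

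Yap1 itself (chr9:7931999-8004596, mm10, minus strand) was lower in every YSGr library. Its log2 CPM was 4.39, 4.52 and 4.80 in SG and 0.21, 0.55 and -0.02 in YSGr. The groups lay far apart, with 205, 208 and 253 estimated reads in SG against 9, 12 and 7 in YSGr. Yap1 fell by 4.32 log2 units (SE 0.23, adjusted p = 0.00047), a 24-fold difference in CPM. The fall stayed between 4.19 and 4.48 log2 units whichever of the 6 libraries was left out. In males the same contrast gave -2.96 (adjusted p = 0.0084), with 1.82, 1.72 and 0.73 log2 CPM left in the YSGr males. The difference between the sexes, -1.36 (SE 0.40), had an unadjusted p of 0.0051 and an adjusted p of 0.43 in the limma interaction test.

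In all, 786 of the 13722 genes passed the threshold (5.73%), of which 337 were higher in YSGr (2.46%) and 449 lower (3.27%). These shares are to be set beside the counts of every list below. The groups did not overlap in any of the 786, nor in 28.2% of all genes tested. Of the genes that passed, 124 were more than 2-fold higher and 242 more than 2-fold lower, and the median change was 0.85 among the higher and -1.05 among the lower ones. The median over all genes tested was 0.01. The number of calls rested heavily on which libraries were in the fit. It was 127, 46 and 49 without SG 4, 5 or 6, and 282, 2138 and 1186 without YSGr 10, 11 or 12. In every one of these 6 fits, 41 genes passed, 19 of them higher and 22 lower. Of the 129 genes chosen by the naming rule that passed, 47, 19 and 23 still passed without SG 4, 5 or 6 and 70, 129 and 122 without YSGr 10, 11 or 12, and all 129 kept their direction. Below, a gene said to have held passed in all 6 of these fits, and any other gene that passed the threshold lost its call in at least 1 of them.

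**Figure D1:**
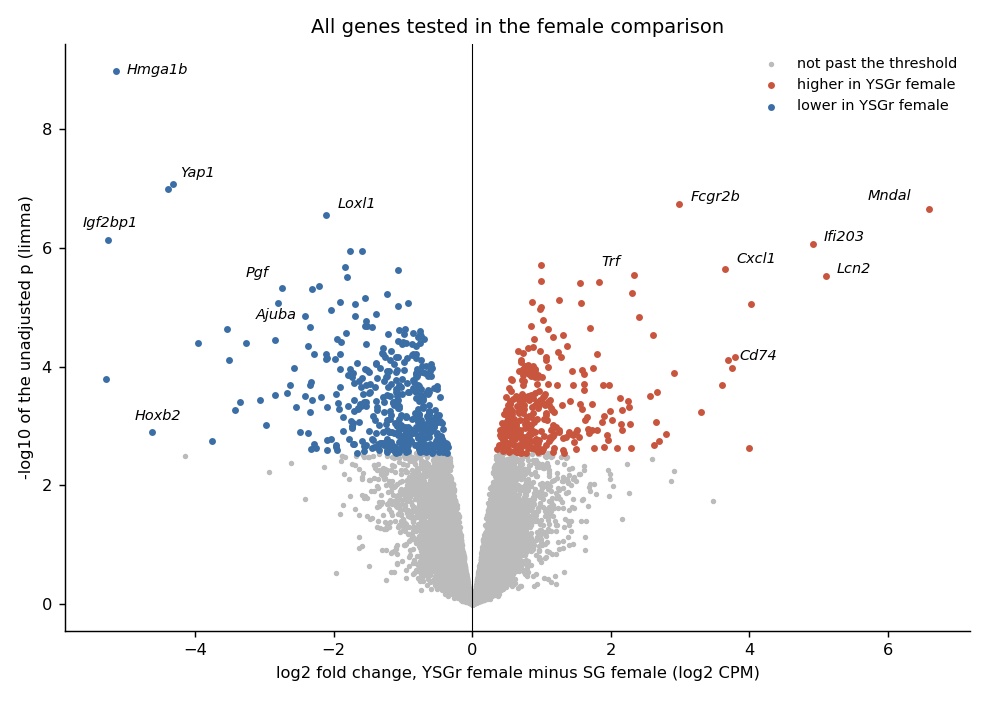
Each point is 1 of the 13722 genes tested in females, by its log2 fold change (x axis, YSGr minus SG, in log2 CPM) and the -log10 of its unadjusted p from limma (y axis), with the 337 genes that rose in red and the 449 that fell in blue. Hmga1b at -5.14 and Yap1 at -4.32 stand highest on the left, and Mndal at 6.60 lies farthest to the right.

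Beside Yap1, its paralogue and several upstream members of the Hippo pathway fell. Of 24 tested genes of a list of YAP, TAZ, TEAD and Hippo kinase genes, 8 fell and 0 rose, with 22 of the 24 below 0 and a median of -0.42 (-0.46 to -0.36 with each library left out). The count of 8 became 12 without YSGr 11 and 1 without SG 5 or SG 6, 3 without SG 4 and 4 without YSGr 10. Yap1, the gene targeted by the genotype, is itself in the list and among the 8. It passed in all 6 of these fits, so the 1 left without SG 5 or SG 6 is Yap1. Wwtr1, which encodes Taz, had log2 CPM of 4.91, 5.12 and 5.41 in SG and 3.78, 4.08 and 3.79 in YSGr. All 3 YSGr values lay below the SG values. It fell by 1.26 (SE 0.17, adjusted p = 0.0092), and the call was lost without SG 5 or SG 6. The scaffolds that act upstream fell too. Wwc1 and Wwc2, the Kibra proteins, changed by -0.81 and -1.17, Amot, a tight-junction protein that holds Yap1 in the cytoplasm, by -0.78 and the giant cadherin Fat4 by -1.09 (adjusted p = 0.0076, 0.0086, 0.027 and 0.019). Of the core kinases Stk3 gave 0.10, Stk4 0.07, Lats1 -0.29 and Lats2 -0.55, and none of these 4 passed. Lats2 came nearest (adjusted p = 0.054), with 357, 346 and 322 reads in SG and 209, 278 and 214 in YSGr. In males the list's median was -0.06.

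Among textbook YAP target genes, Ajuba, Fstl1 and Rbms3 fell. Of 24 tested, 3 fell and 0 rose, with a median of -0.24. The groups did not overlap in 10 of the 24, nor in 28.2% of all genes tested. The 3 became 10 without YSGr 11, 1 without SG 4 and 0 without SG 5 or SG 6. Ajuba, a LIM protein that restrains the Lats kinases, showed the largest change in the list. Its log2 CPM was 3.63, 3.83 and 3.97 in SG and 1.88, 1.55 and 0.99 in YSGr. The YSGr libraries were all more than 1 log2 unit below SG, and Ajuba fell by 2.34 (SE 0.26, adjusted p = 0.0059). Fstl1, a secreted glycoprotein, fell by 0.93 and the RNA-binding protein gene Rbms3 by 0.97 (adjusted p = 0.015 and 0.030). The most used reporters of Yap1 activity did not pass. Ccn1 had 61, 111 and 72 reads in SG and 30, 61 and 14 in YSGr, a difference of -1.35, and Ccn2 had 22, 43 and 43 against 20, 76 and 17, a difference of -0.19. YSGr 11 was the highest YSGr library for both. Amotl2 and Axl gave -0.18 and -0.14.

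TEAD factors bind the letters CATTCC, and promoters of genes in this group were searched for them on both strands, from 250 bases before to 50 after the RefSeq start of transcription (GRCm38.p6, the mm10 build). Of 19 windows of 17 YAP target genes, 7 held the letters (36.8%), against 14.7% of all 32851 windows and 12.2% of the 13837 windows of genes tested. The share was 20.2% of 405 windows of genes that fell and 11.7% of 326 windows of genes that rose. Ajuba is shown because it changed most in the list and its window held 2 matches, and Wwtr1 because it is the paralogue of Yap1 and held 1. Each stretch is the 150 bases at the upstream end of the window, on the strand of the gene, with the matches in capitals. They are chr14:54577762-54577911 for Ajuba, with matches 186 and 164 bases before the start, and chr3:57576011-57576160 for Wwtr1, with a match 136 bases before it. Both genes lie on the minus strand. A match describes the letters and is not evidence that a factor binds there.
Ajuba: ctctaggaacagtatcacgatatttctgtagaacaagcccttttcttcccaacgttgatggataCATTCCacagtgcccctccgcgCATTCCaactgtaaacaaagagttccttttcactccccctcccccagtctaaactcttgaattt
Wwtr1: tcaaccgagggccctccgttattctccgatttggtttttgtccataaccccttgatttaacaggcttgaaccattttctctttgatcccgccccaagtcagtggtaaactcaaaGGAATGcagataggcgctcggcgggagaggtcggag
The Wwtr1 match reads GGAATG because it lies on the other strand.

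**Figure D2:**
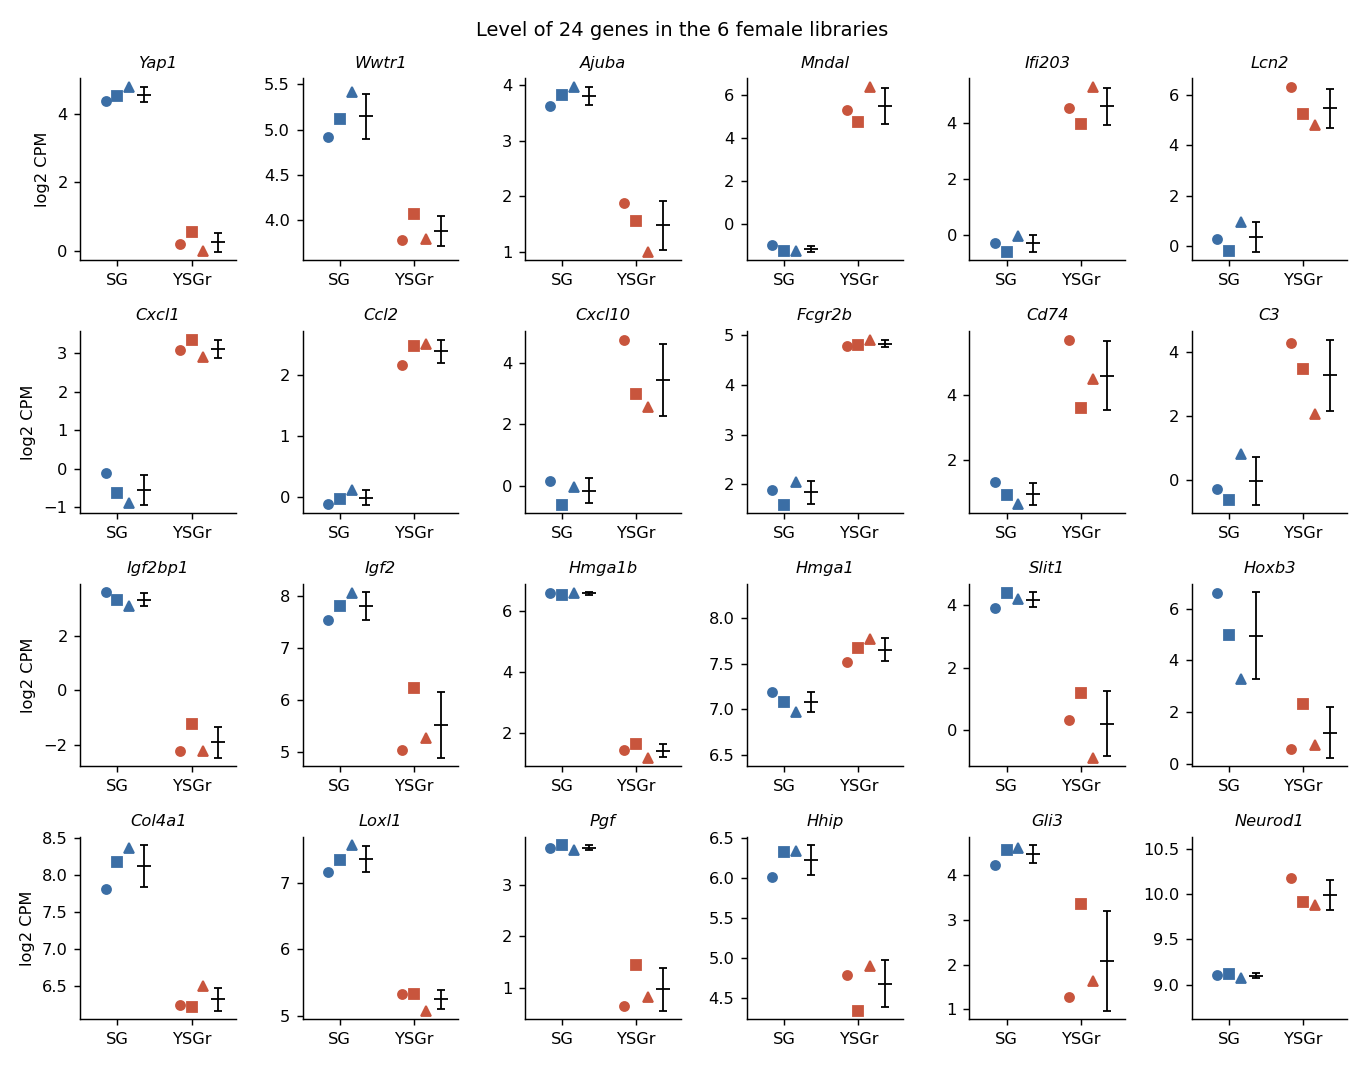
Level of 24 genes in the 6 female libraries (y axis, log2 CPM, with its own range for each gene). Circles, squares and triangles are SG 4, 5 and 6 in blue and YSGr 10, 11 and 12 in red, and the black marks are the group mean and SD. The groups are separate for every gene shown, and the YSGr libraries are widely spread for Slit1, Gli3 and Cxcl10 and tightly placed for Hmga1b and Fcgr2b.

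Several genes of the Hedgehog pathway fell, while the transforming SMO-M2 allele was present in both groups. Of 20 listed genes, all tested, 7 fell and 1 rose, with a median of -0.50. The groups did not overlap in 17 of the 20, against 28.2% of all genes tested. The 7 became 12 without YSGr 11, 2 without YSGr 10, 1 without SG 4 and 0 without SG 5 or SG 6. Hhip, which binds Hedgehog ligands and is itself induced by the pathway, had log2 CPM of 6.01, 6.33 and 6.34 in SG and 4.79, 4.34 and 4.90 in YSGr. It fell by 1.55 (SE 0.17, adjusted p = 0.0059). The receptor Ptch1, also a target gene, fell by 0.83 (adjusted p = 0.032). Gli3, the Gli factor that mostly represses, had 183, 214 and 219 reads in SG against 21, 96 and 26 in YSGr, and fell by 2.38 (adjusted p = 0.034). Here YSGr 11 again stood above the other YSGr libraries. The coreceptor Boc and the cyclin gene Ccnd1 each fell by 0.51 (adjusted p = 0.039 and 0.042). Sfrp1, a secreted Wnt antagonist that the pathway also induces, went the other way, by 0.57 (adjusted p = 0.035). Mycn, a main effector of Hedgehog signalling in progenitors, was at 8.43 log2 CPM in both groups. The GLI letters GACCACCCA were in 0 of 15 windows of 13 genes of the list and in 0.253% of all windows. Letters this rare would hardly be met in 15 windows, so the 0 says nothing about the list. In males the median of the list was -0.40 and 0 of its members passed.

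Genes of granule neuron progenitors split in direction. Of 18 listed, 3 rose and 4 fell, with a median of -0.05, and 5 rose and 5 fell without YSGr 11. Without SG 5 or SG 6 0 passed, and 1 rose without SG 4 or YSGr 10. Neurod1, a factor of granule neuron differentiation, had log2 CPM of 9.11, 9.13 and 9.08 in SG and 10.18, 9.91 and 9.88 in YSGr. The values of each group lay close together, and Neurod1 rose by 0.89 (SE 0.11, adjusted p = 0.0070). Meis1 rose by 0.40, and Hes6, a Hes-family gene of neurogenesis, fell by 0.54 (adjusted p = 0.034 and 0.030). The progenitor factor Atoh1 gave -0.49 and did not pass. Among 22 genes of differentiating granule neurons 3 rose and 0 fell, with a median of 0.32, and 1 rose without SG 5 or SG 6 and 5 without YSGr 12. Without YSGr 11 4 rose and 4 fell, and with library weights 9 rose and 3 fell. Nrn1, a secreted neurite-growth protein, rose by 0.99 (adjusted p = 0.0038) and held. Reln, the signal that guides migrating neurons, and Stmn2, a microtubule regulator of axons, rose by 0.80 and 0.87 (adjusted p = 0.010 and 0.011). In males the median of this list was 0.82 and 3 of its members rose, while Stmn2 and Neurod1 changed by 0.04 and 0.13, and the female-minus-male differences of 0.83 and 0.76 had an adjusted p of 0.43 each. The list's median was 0.14 without YSGr 11, the library with high Purkinje cell genes, and 0.71 without YSGr 12.

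No list member for proliferation passed. Of 30 cell cycle genes 0 passed in either direction with limma or with limma-voom and 5 had an unadjusted p under 0.05, and 26 of the 30 were below 0 with a median of -0.14. Over all genes tested, 2901 of 13722 had an unadjusted p under 0.05 (limma). The median ran from -0.30 without YSGr 12 to 0.02 without YSGr 11. Mki67, the proliferation antigen, had log2 CPM of 9.64, 9.50 and 9.77 in SG and 9.59, 8.55 and 9.51 in YSGr. YSGr 11 alone lay apart from the rest. Top2a and Cdk4 gave -0.10 and -0.03.

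Notch1, its target genes and stem cell genes were among those that fell. Of 23 tested neural stem cell and astrocyte genes 6 fell and 0 rose, with a median of -0.34. The 6 became 10 without YSGr 11, 3 without YSGr 10 and 0 without any 1 of the SG libraries. The receptor Notch1 had log2 CPM of 5.30, 5.18 and 5.41 in SG and 4.06, 4.16 and 3.50 in YSGr, and fell by 1.39 (SE 0.19, adjusted p = 0.010). Its target genes Hes5 and Hes1 fell by 1.64 and 1.14 (adjusted p = 0.020 and 0.046). Sox2, the stem cell factor, fell by 1.05, the glial factor Sox9 by 0.61 and the astrocyte water channel gene Aqp4 by 0.70 (adjusted p = 0.020, 0.028 and 0.033). Gfap, the filament of mature astrocytes and the gene whose human promoter drives the Cre, gave 0.73 and did not pass. Oligodendrocyte genes had a median of -0.61, with 2 of 18 lower (Olig1 by -0.62 and Cspg4 by -0.71, adjusted p = 0.022 and 0.020) and 0 higher. The 2 became 6 without YSGr 11, 3 without YSGr 12, 1 without YSGr 10 and 0 without any 1 of the SG libraries. That median depended on the libraries in the fit: it was -0.07 without YSGr 12 and -0.67 without YSGr 11. Mbp, a myelin protein gene, was at 8.99, 9.93 and 7.76 log2 CPM in YSGr, a range wider than the distance between the group means. In these bulk samples, here and for every cell type below, fewer cells of a type and less RNA per cell cannot be told apart.

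The matrix genes were, of the 40 lists, the one with the most members lower. Of 29 collagen and matrix genes, all tested, 20 fell and 0 rose, with a median of -1.22 (-1.35 to -1.10 with each library left out). The 20 became 22 without YSGr 11, 11 without SG 4, 3 without SG 5 and 4 without SG 6. Col4a1 and Col4a2, the paired chains of basement membrane collagen, and Nid1, the linker of that membrane, held. Col4a1 had log2 CPM of 7.81, 8.18 and 8.37 in SG and 6.24, 6.21 and 6.50 in YSGr. It fell by 1.80 (SE 0.15, adjusted p = 0.0025), a 3.52-fold difference in CPM, while Col4a2 fell by 1.60 and Nid1 by 1.76 (adjusted p = 0.0016 for each). Lama5 and Lamc1, laminin chains, and Col18a1, a collagen of vessel walls, fell by 1.53, 1.07 and 1.22 (adjusted p = 0.0073, 0.0071 and 0.0065). Among fibrillar collagens Col5a2 changed most, with 464, 562 and 580 reads in SG against 43, 172 and 74 in YSGr, a fall of 2.67 (adjusted p = 0.016). Col3a1 and Col1a1 fell by 2.09 and 1.97 (adjusted p = 0.0092 and 0.042). Fmod, a small proteoglycan that binds collagen, fell by 3.27 (adjusted p = 0.0073). Dcn, another small proteoglycan, was the only member above 0, at 0.68, and did not pass. The summed level of the list was 2085 to 2414 CPM in SG and 945 to 1304 CPM in YSGr.

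Genes of elastic fibres and their crosslinking were lower too. Of 16 tested, 5 fell and 0 rose, with a median of -0.88, and 10 fell without YSGr 11, 2 without SG 4 and 1 without SG 5 or SG 6. Loxl1, the enzyme that crosslinks elastin, had log2 CPM of 7.16, 7.34 and 7.56 in SG and 5.34, 5.33 and 5.08 in YSGr, fell by 2.10 (SE 0.13, adjusted p = 0.00065) and held. Eln, elastin itself, fell by 2.58 (adjusted p = 0.011), Fbln2 by 1.82 and Mfap2 by 1.17 (adjusted p = 0.0065 and 0.023). Adamts12, a matrix protease of the ADAMTS family, fell by 2.81 (SE 0.27, adjusted p = 0.0036) and held. The other proteases were divided. Of 18 metalloproteinase and inhibitor genes 4 rose and 2 fell, and 0 rose without any 1 of the SG libraries and 1 without YSGr 10 or with limma-voom. The membrane-bound Mmp14 and Mmp15 fell by 0.98 and 1.31 (adjusted p = 0.011 and 0.0087). The secreted Mmp3, Mmp9 and Mmp12 rose by 2.69, 1.96 and 2.16 from 1 to 7 reads per SG library, and the inhibitor Timp1 rose by 2.26 (adjusted p = 0.039, 0.039, 0.032 and 0.020). Mmp3, Mmp9 and Mmp12 were below 0 log2 CPM in every SG library and were tested only through YSGr, so the count of 4 leans towards rises. Mmp3 and Mmp12 lie within 1 Mb of Yap1 on chromosome 9, where 3 of 11 neighbours tested passed, the other being Arhgap42, which fell. Over all genes tested 5.73% passed, and with Mmp3 and Mmp12 in it the count of 3 leans the same way.

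Markers of vessels fell with the matrix. Of 17 endothelial genes tested 7 fell and 0 rose, with a median of -0.78, and their summed level was 295 to 340 CPM in SG and 164 to 245 CPM in YSGr. The 7 became 10 without YSGr 11, 2 without SG 4 or YSGr 10 and 0 without SG 5 or SG 6. Kdr, the main VEGF receptor, had 136, 203 and 204 reads in SG and 53, 50 and 71 in YSGr, and fell by 1.60 (SE 0.25, adjusted p = 0.014). Flt1, the other VEGF receptor of vessels, the cadherin gene Cdh5 and the junction gene Esam fell by 0.94, 1.05 and 1.05 (adjusted p = 0.013, 0.026 and 0.028). Eng, a TGF-beta coreceptor, and Mfsd2a, a lipid transporter of the blood-brain barrier, fell by 1.12 and 1.49 (adjusted p = 0.010 and 0.032). Of 19 pericyte, fibroblast and meningeal genes 7 fell and 0 rose, with a median of -0.71 (0 fell without SG 5 or SG 6, 4 without SG 4 or YSGr 10). Among them were the pericyte receptor genes Pdgfrb at -1.64 and Notch3 at -1.48 (adjusted p = 0.012 and 0.015). Rgs5, another pericyte gene, gave -0.01. The levels of the matrix genes and of the vessel genes moved together, and the part of the vessel and meningeal cells in the matrix result was not tested.

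Among ligands of vessel growth, Pgf, placental growth factor, changed most. Pgf had log2 CPM of 3.71, 3.77 and 3.68 in SG and 0.66, 1.44 and 0.82 in YSGr. No library of the groups came within 2 log2 units of the other, and Pgf fell by 2.75 (SE 0.25, adjusted p = 0.0029) and held. In males it changed by -2.64 (adjusted p = 0.016). Vegfa, the major vessel growth factor, gave -0.15. Of 19 angiogenic genes tested, 6 fell (1 without SG 5 or SG 6, 2 without SG 4, 4 without YSGr 10) and 1 rose, the latter being Thbs2, an inhibitor of vessel growth, at 0.82 (adjusted p = 0.041). Pdgfa and the ephrin receptor gene Ephb4 fell by 1.10 and 1.19 (adjusted p = 0.015 and 0.0093).

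**Figure D3:**
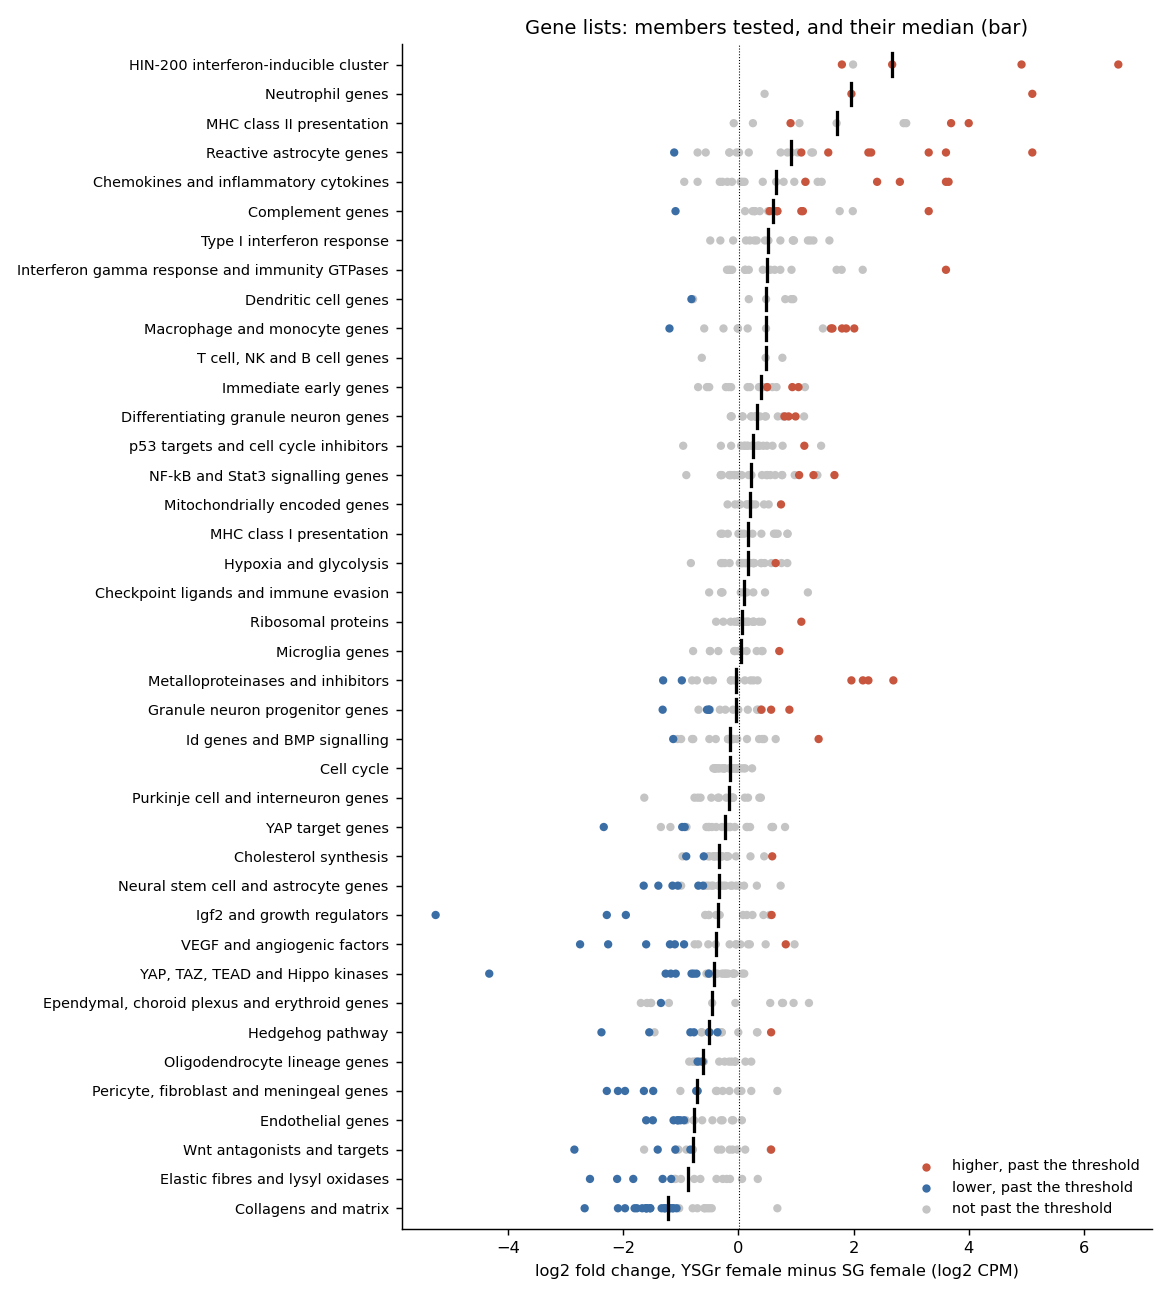
Log2 fold change in females of the tested members of 40 gene lists (x axis, YSGr minus SG, in log2 CPM), 1 line per list in the order of their medians, with the median as a black bar and the median of all genes tested, 0.01, as the dotted line. Red and blue points rose and fell. The collagen and matrix list lies lowest at -1.22 and the HIN-200 list highest at 2.67. The HIN-200 median includes genes that passed the filter only through YSGr.

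Igf2bp1 and Igf2, growth genes most active before birth, fell. Igf2bp1 encodes an RNA-binding protein that stabilises Igf2 and other messages and is normally silent after birth. It had 118, 89 and 77 reads in SG and 0, 2 and 0 in YSGr. It fell by 5.26 log2 units (SE 0.37, adjusted p = 0.0014) and held, and it was also lower in males at -3.20 (adjusted p = 0.028). Its relative Igf2bp3 fell by 1.95 and the growth factor Igf2 by 2.28 (adjusted p = 0.0070 and 0.0087). Igf2 had log2 CPM of 7.53, 7.81 and 8.06 in SG and 5.04, 6.23 and 5.27 in YSGr, without overlap. Grb10, an imprinted inhibitor of insulin-like growth factor signalling, had 710, 764 and 789 reads in SG and 33, 211 and 52 in YSGr, and fell by 3.36 (adjusted p = 0.018).

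Hmga1b gave the lowest p of all. Hmga1 and Hmga1b encode almost the same chromatin protein, an architectural factor of dividing cells, and reads from them cannot be fully told apart, so each value alone is uncertain. Hmga1b (chr11:120762794-120764419) had 942, 847 and 886 reads in SG and 24, 28 and 19 in YSGr. It fell by 5.14 (SE 0.15, adjusted p = 1.4e-05) and held. Hmga1 rose by 0.58 (adjusted p = 0.021). The sum of both was 230.4 ± 10.0 CPM (SD, n = 3) in SG and 204.8 ± 17.7 CPM (SD, n = 3) in YSGr. The YSGr males kept 698, 542 and 605 reads of Hmga1b, and this was the only gene whose change differed between the sexes past the threshold.

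Among the other most lowered genes were Hoxb2, Hoxb3, Robo3 and Slit1. Hoxb2 and Hoxb3, neighbouring genes that pattern the hindbrain, fell by 4.62 and 3.76 (adjusted p = 0.033 and 0.039), but they passed in only 1 of the 6 fits with a library left out. The SG libraries differed widely in them, with 967, 288 and 87 reads of Hoxb3 in SG 4, 5 and 6 against 12, 46 and 13 in YSGr. Robo3, a receptor of commissural axons, ran in parallel in SG, with 237, 95 and 49 reads, and fell by 3.42 (adjusted p = 0.021). Slit1, a ligand of the Robo receptors, was more even, with 147, 191 and 166 reads in SG and 10, 20 and 3 in YSGr, and fell by 3.95 (adjusted p = 0.0073). Igsf1, a membrane glycoprotein, fell by 2.48 and Pla2g5, a secreted phospholipase, by 2.41 (adjusted p = 0.033 and 0.0047).

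Some Wnt ligands and agonists were also lower, with 4 of 17 tested members of a Wnt list falling, 1 rising and a median of -0.79 (-0.41 without YSGr 10). Without any 1 of the SG libraries 0 fell, and 2 fell without YSGr 10. Rspo1, which strengthens Wnt signals, fell by 2.85, and the ligands Wnt5a and Wnt7b fell by 1.40 and 1.09 (adjusted p = 0.017, 0.026 and 0.012). Apcdd1, a Wnt antagonist, fell by 0.83 (adjusted p = 0.015), and the member that rose is Sfrp1, given above. Of 20 BMP and Id genes 1 fell, the ligand Bmp7 at -1.13, and 1 rose, its antagonist Grem1 at 1.39 (adjusted p = 0.019 and 0.033). Without YSGr 10 or any 1 of the SG libraries 0 of these 20 passed, and 2 rose and 3 fell without YSGr 11.

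On the side of the higher genes, Mndal led. It belongs to the HIN-200 family, interferon-inducible nuclear proteins that bind DNA, encoded in a cluster on chromosome 1. Mndal (chr1:173849126-173942491) had 3, 2 and 2 reads in SG and 375, 252 and 741 in YSGr. It rose by 6.60 log2 units (SE 0.40, adjusted p = 0.0006) and held. Ifi203 overlaps it in the annotation, so their reads may be divided between them, and it went from 6, 4 and 7 reads to 219, 149 and 352, a rise of 4.92 (SE 0.35, adjusted p = 0.0015) that also held. Ifi204 and Aim2, a sensor of cytosolic DNA, rose by 2.67 and 1.80 (adjusted p = 0.016 and 0.032). Of 5 tested genes of the cluster 4 rose (2 without YSGr 10 or any 1 of the SG libraries), 0 fell and the median was 2.67, and 8 others of the list were too low to test. Mndal, Ifi203 and Ifi204 were below 0 log2 CPM in every SG library, so they passed the filter only through YSGr. The count and the median over tested members lean towards rises for that reason. Within 1 Mb of Mndal, 4 of 8 neighbours passed, all of them higher, against 5.73% of all genes tested. The fourth is the chemokine-binding receptor gene Ackr1. Ifi203 and Ifi204 are among these neighbours, so this count leans the same way. The YSGr males were not uniform, with Mndal at 4.74, -0.07 and 4.82 log2 CPM against -1.66 to -0.94 in SG males. Because the labels give no strain, inherited differences at this cluster and an effect of the genotype cannot be told apart.

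Other interferon-inducible genes moved little in comparison. Of 17 tested genes of the type I interferon response 0 passed with limma or limma-voom and 5 had an unadjusted p under 0.05, with 14 of 17 above 0 and a median of 0.52. By limma 2901 of all 13722 genes tested had such a p, a share to set beside this count and the similar ones below. The median of the list was 0.25 without YSGr 10. Stat2 and Ifit2 gave 0.32 and -0.31. In the list of interferon gamma response genes 1 of 16 rose, Cxcl10, and the median was 0.49. With limma-voom or without any 1 of the SG libraries 0 rose, and 5 had an unadjusted p under 0.05 with limma. Cxcl10 exceeded 0 log2 CPM in only 1 SG library and needed YSGr to pass the filter. MHC class I genes had 0 of 14 past the threshold with limma or limma-voom, 3 with an unadjusted p under 0.05 and a median of 0.17, with B2m at 0.68 (adjusted p = 0.067) and H2-D1 at 0.40 (adjusted p = 0.082). The IRF letters TTCNNTTTC were in 9 of 17 windows of the type I list (52.9%) against 8.56% of all windows, and the STAT letters TTCNNNGAA in 6 of 17 windows of the interferon gamma list (35.3%) against 8.30%.

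Several chemokines rose. Of 21 chemokine and cytokine genes tested 5 rose and 0 fell, with a median of 0.66 (0.31 without SG 6). Without any 1 of the SG libraries 2 rose, and with limma-voom 3 rose and 1 fell. The summed level was 152 to 166 CPM in SG and 212, 211 and 141 CPM in YSGr, so YSGr 12 lay below every SG library. Cxcl1, which draws neutrophils, had 7, 4 and 3 reads in SG and 78, 96 and 65 in YSGr, and rose by 3.65 (SE 0.30, adjusted p = 0.0023). Ccl2, which draws monocytes, had 7, 7 and 8 reads and then 41, 52 and 50, and rose by 2.41 (SE 0.25, adjusted p = 0.0048). Both held. Cxcl10, which draws T cells and is a classical interferon target, had 9, 4 and 7 reads in SG and 257, 75 and 51 in YSGr. It rose by 3.60 (SE 0.55, adjusted p = 0.013), with YSGr 10 far above the others, and the call was lost without any 1 of the SG libraries. The inflammatory cytokine gene Il1b and the chemokine gene Ccl6 rose by 2.80 and 1.16 (adjusted p = 0.034 and 0.049). Cxcl1 and Il1b were below 0 log2 CPM in every SG library and were tested only through YSGr. Ccl2 and Cxcl10 exceeded 0 in only 1 SG library each and also needed YSGr to pass the filter. The count of 5 therefore leans towards rises. The Cxcl10 promoter is shown for its match to the IRF letters, in capitals, 213 bases before the start. The stretch is chr5:92348990-92349139 on the minus strand.
Cxcl10: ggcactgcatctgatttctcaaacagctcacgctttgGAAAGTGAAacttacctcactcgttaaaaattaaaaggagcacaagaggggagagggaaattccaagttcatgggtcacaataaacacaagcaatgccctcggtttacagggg
The match reads GAAAGTGAA, on the other strand.

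Genes of NF-kB and Stat3 signalling had a median of 0.23, and 3 of 25 rose (5 without YSGr 11 or YSGr 12, 2 without YSGr 10, 1 without SG 4 and 0 without SG 5 or SG 6). These were Nfkbiz, an inducible nuclear cofactor of NF-kB, at 1.30, Bcl3, a related cofactor, at 1.67, and the acute-phase factor Cebpd at 1.06 (adjusted p = 0.0065, 0.032 and 0.016). In addition, 3 immediate early genes of 18 rose, Junb at 1.04, Ier3 at 0.94 and Dusp1 at 0.50 (adjusted p = 0.019, 0.026 and 0.041), and 0 fell. Without SG 5, SG 6 or YSGr 10 0 of these rose, 1 rose without SG 4, and 4 rose and 3 fell without YSGr 11.

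Lcn2, Cp and Trf were among the genes that rose most, and some reactive astrocyte genes rose with them. Lcn2, lipocalin 2, binds bacterial siderophores and marks reactive astrocytes and neutrophils. It had 10, 6 and 16 reads in SG and 759, 362 and 250 in YSGr, and rose by 5.10 (SE 0.43, adjusted p = 0.0025). Cp, ceruloplasmin, an iron oxidase, had log2 CPM of 4.74, 4.58 and 4.88 in SG and 7.56, 6.83 and 6.73 in YSGr, and rose by 2.31 (SE 0.21, adjusted p = 0.0033). Trf, the iron carrier transferrin, rose by 2.33 (SE 0.20, adjusted p = 0.0025). All 3 held, and all were higher in males too, at 6.24, 2.60 and 2.52 (adjusted p = 0.0094, 0.0011 and 0.014). Of 21 reactive astrocyte genes tested 7 rose and 1 fell, with a median of 0.92, and 2 rose without any 1 of the SG libraries, 11 without YSGr 12 and 4 with limma-voom. The summed level was 821 to 867 CPM in SG and 1403, 1408 and 783 CPM in YSGr, so YSGr 12 lay below every SG library. Those that rose include Serping1, the inhibitor of C1, at 1.09 and the proteoglycan gene Srgn at 1.56, and the one that fell is Emp1 at -1.11 (adjusted p = 0.013, 0.019 and 0.019). C3 and Cxcl10, also among the 7, exceeded 0 log2 CPM in only 1 SG library each and needed YSGr to pass the filter. The count of 7 and the median lean towards rises for that reason. Of the general astrocyte genes given above, Aqp4 changed by -0.70 and Gfap by 0.73, the latter without passing.

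C3 and the 3 chains of C1q were among the complement genes that rose. Of 18 tested 6 rose and 1 fell, with a median of 0.60 and 17 of 18 above 0. Without any 1 of the SG libraries 0 passed, 2 rose without YSGr 10 and 8 without YSGr 11. C3, the central component, had 6, 4 and 14 reads in SG and 183, 103 and 36 in YSGr, and rose by 3.30 (adjusted p = 0.022). C3 exceeded 0 log2 CPM in only 1 SG library and needed YSGr to pass the filter, so the count of 6 leans towards rises. The 3 chains of C1q, made by microglia and macrophages, rose by less and evenly, C1qa by 0.54, C1qb by 0.68 and C1qc by 0.67 (adjusted p = 0.035, 0.011 and 0.021). Masp1, a protease of the lectin pathway, fell by 1.09 (adjusted p = 0.030).

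More macrophage than microglia markers rose, a difference that was not tested. Of 15 microglia genes 1 rose, Fcrls at 0.71 (adjusted p = 0.036), 0 fell and the median was 0.04, and 0 rose without YSGr 10 or any 1 of the SG libraries. Their summed level was 524 to 532 CPM in SG and 484 to 607 CPM in YSGr. Csf1r, the receptor that microglia need to survive, gave -0.07. Of 13 macrophage and monocyte genes tested 5 rose and 1 fell, with a median of 0.48 and a summed level of 424 to 463 CPM in SG and 641 to 923 CPM in YSGr. The 5 became 1 without SG 4, 0 without SG 5 or SG 6 and 2 without YSGr 10. Lyz2, lysozyme, had log2 CPM of 6.54, 6.52 and 6.58 in SG and 8.84, 7.79 and 8.42 in YSGr, and rose by 1.80 (SE 0.23, adjusted p = 0.0087). Lgals3, Gpnmb, Spp1 and Ms4a7, genes of phagocytes in damaged tissue or at brain borders, rose by 2.01, 1.61, 1.87 and 1.63 (adjusted p = 0.026, 0.013, 0.027 and 0.026). The member that fell is Fn1, fibronectin, at -1.20 (adjusted p = 0.011), which is also a matrix gene. Fcgr2b, the inhibitory Fc receptor, was even within groups, with 34, 26 and 36 reads in SG and 259, 266 and 269 in YSGr. It rose by 2.99 (SE 0.18, adjusted p = 0.0006) and held. Fcgr2b is not a member of the macrophage list, and it lies on chromosome 1 (chr1:170958617-170976547), as the HIN-200 cluster does. In the YSGr males it was at 5.41, 3.10 and 5.35 log2 CPM, lowest in library 8, where Mndal was lowest too. An inherited difference in this region was not tested, so its rise is not a separate sign of more macrophages.

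Cd74, H2-Aa and Ctss of MHC class II antigen presentation rose, unevenly across the libraries. Of 9 tested genes 3 rose and 0 fell, with a median of 1.71, while 6 rose without YSGr 11, 2 without YSGr 10 or YSGr 12, 1 without SG 4 or with limma-voom and 0 without SG 5 or SG 6. Cd74, the invariant chain, had 22, 15 and 12 reads in SG and 508, 115 and 204 in YSGr, and rose by 3.69 (SE 0.49, adjusted p = 0.0093). H2-Aa, a class II chain, had 9, 1 and 1 reads and then 288, 22 and 54, a rise of 4.00 (adjusted p = 0.044) that passed in only 1 of the 6 fits with a library left out. H2-Aa exceeded 0 log2 CPM in only 1 SG library and needed YSGr to pass the filter. The count of 3 and the median lean towards rises for that reason. Ctss, the protease that trims the invariant chain, rose by 0.91 (adjusted p = 0.012). YSGr 10 was the highest library for all 3. H2-Ab1 and H2-Eb1 gave 2.91 and 2.87 and did not pass. Of 7 dendritic cell genes tested 0 rose and 1 fell, Fscn1 at -0.81 (adjusted p = 0.012), an actin bundler that neurons also express.

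Most lymphocyte and neutrophil markers were too low to test. Of 26 T, NK and B cell genes 18 were in the table and 3 could be tested, with 0 past the threshold by limma or limma-voom and 1 with an unadjusted p under 0.05. These were Cd4 at 0.76, which macrophages of the brain also express, Foxp3 at 0.47 and Cd79a at -0.63. Cd3e, Cd3d, Cd8a, Gzma, Gzmb and Prf1 had 0 to 2 reads in each library. The summed level was 10.6 to 13.1 CPM in SG and 14.3 to 21.9 CPM in YSGr. Of 16 neutrophil genes 3 could be tested and 2 rose, Lcn2 and Mmp9 (1 without YSGr 10 or any 1 of the SG libraries, and 1 with limma-voom). Mmp9 was below 0 log2 CPM in every SG library and was tested only through YSGr, so the count leans towards rises. The third gene tested, the receptor gene Csf3r, had 110, 108 and 106 reads in SG and 149, 197 and 112 in YSGr, a difference of 0.46 that did not pass. The summed level of the neutrophil list was 13.3 to 14.7 CPM in SG and 103, 75.2 and 45.1 CPM in YSGr. Lcn2, which other cells also make, is part of that sum. S100a8 had 1, 0 and 2 reads in SG and 3, 21 and 2 in YSGr, and S100a9 had 1, 0 and 1 and then 3, 26 and 9, with YSGr 11 highest. Among 11 ligands of immune checkpoints and evasion genes tested 0 passed by limma or limma-voom and 3 had an unadjusted p under 0.05, with a median of 0.10. By limma 2901 of all 13722 genes tested had such a p. Cd274, which encodes PD-L1, had 5 reads in each SG library and 23, 10 and 12 in YSGr, a difference of 1.21 that did not pass. Cd47 and Cd276 gave 0.04 and -0.28.

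**Figure D4:**
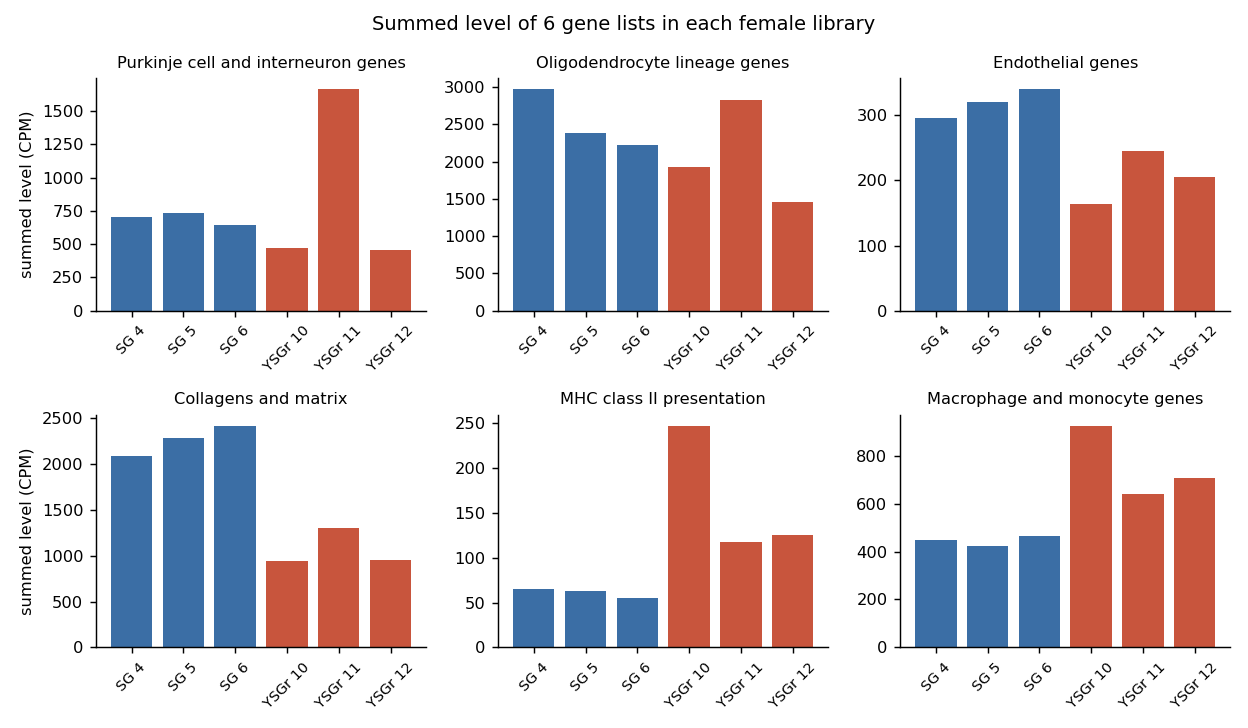
Summed level of 6 gene lists in each female library (y axis, CPM, from 0), SG in blue and YSGr in red. Purkinje cell and interneuron genes reach 1662 CPM in YSGr 11 only, the collagen and endothelial lists are lower in all 3 YSGr libraries, and the MHC class II and macrophage lists are higher in all 3, most of all in YSGr 10.

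Other genes that rose most include Tgm1, a transglutaminase of epithelia, from 11, 5 and 11 reads to 199, 255 and 95, by 4.02 (SE 0.40, adjusted p = 0.0036), which held. Shisa3, an inhibitor of Wnt and Fgf receptors, rose by 3.74 and Strc, a protein of the inner ear, by 2.61 (adjusted p = 0.011 and 0.0065). Of 24 cholesterol synthesis genes 1 rose and 2 fell, with a median of -0.33, among them Mvd at 0.59 and Mvk at -0.60 (adjusted p = 0.018 and 0.032), and 21 of the 24 were below 0. The 2 became 10 without YSGr 12, 7 without YSGr 11, 1 without YSGr 10, 0 without any 1 of the SG libraries and 20 with library weights. Ribosomal protein genes had 1 of 30 past the threshold, Rps2 at 1.09 (adjusted p = 0.0061), a gene with many near-identical copies, so its value is uncertain, and a median of 0.06. The p53 target Phlda3 rose by 1.15, the hypoxia gene Bnip3 by 0.65 and the mitochondrial mt-Atp8 by 0.74 (adjusted p = 0.031, 0.049 and 0.021). Each was the only member of its list to pass, of 20, 24 and 13 tested. Over all genes tested 5.73% passed, so these single calls and that of Rps2 say little about their lists. Without YSGr 10 or any 1 of the SG libraries 0 members of these 3 lists passed. Of the 20 p53 targets 8 rose and 1 fell without YSGr 11, and 10 rose with library weights. Of the 24 hypoxia genes 3 fell without YSGr 11, and 0 passed with limma-voom.

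The male libraries share no sample with this comparison, and they were fitted apart. There 325 of 13861 genes passed (2.34%), 245 higher and 80 lower. Of the 786 female calls 778 were tested in males, and 675 of them (86.8%) had the same sign, against 60.0% of the 13624 genes tested in both sexes. In males 100 of them also passed, all 100 in the same direction, which is 12.7% of the female and 30.8% of the male calls. The male count was between 35 and 221 with each male library left out. Passing in one sex alone does not show a difference, so the difference was tested in all 12 libraries with limma. There 1 of 14147 genes passed (0.00707%), Hmga1b, with a female-minus-male difference of -4.58 (SE 0.29, adjusted p = 1.2e-05), and 1634 had an unadjusted p under 0.05. Among the 778 female calls 208 had such an unadjusted p. These genes were picked for their change in the same female libraries, which favours low p-values in this test. The 208 therefore cannot be set against the 1634. The nearest by rank on the female-higher side were Dynlt1b, Hmga1, Tdg, Hpdl and Aprt, with differences of 1.42, 1.07, 0.78, 1.50 and 1.20 (adjusted p = 0.43 for each). On the female-lower side, after Hmga1b, came Steap4 at -2.81, Ctse at -2.31, Nectin1 at -1.10 and Chil1 at -1.58 (adjusted p = 0.26, 0.26, 0.43 and 0.43). Steap4 gave 1.03 in females and 3.84 in males, and Chil1 gave 0.92 and 2.51. Ctse went from 2.85 to 3.19 log2 CPM in SG females to 0.55 to 1.39 in YSGr females and was at 2.99 to 3.45 in YSGr males. The count of sex-dependent genes was 115 without YSGr 11 and 2 without YSGr 12 or without library 7 of the YSGr males.

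**Figure D5:**
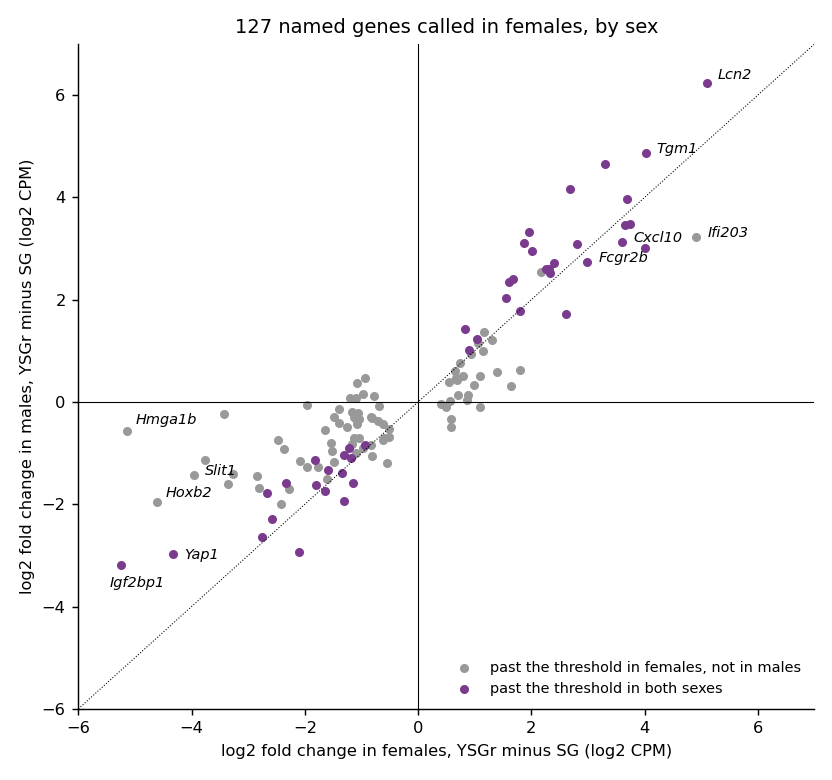
Log2 fold change in females (x axis) and in males (y axis), YSGr minus SG in log2 CPM, of the 127 named genes that passed in females and were tested in males, with the line of equality dotted. Purple points passed in both sexes (44 genes) and grey points in females but not in males, 116 of the 127 have the same sign, and Hmga1b lies at -5.14 in females and -0.56 in males.

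By position, the share of genes that passed ran from 3.80% on chromosome X to 7.44% on chromosome 1 among the chromosomes of the nucleus. Within 5 Mb of Yap1 4 of 23 tested neighbours passed and within 10 Mb 7 of 43, against 5.73% of all genes tested. Both counts include Mmp3 and Mmp12, which were tested only through YSGr, so they lean towards more calls. A concentration of changes around Yap1 was not tested.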

How the data were processed

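The authors deposited 1 table of log2 CPM for 15672 genes in 12 libraries. The mm10 build, edgeR 3.30.3, RSEM 1.2.12 with Bowtie2, Trimmomatic 0.33 and Picard 1.95 are named per the submitters' processing notes. Which step each tool served, the annotation, whether strand was used and how low genes were filtered is not given in the sources used here. With the log2 undone, the values of each library lay on equal steps, and 92.1 to 92.6% of genes in the female libraries came out as whole reads within 0.02 reads. Estimated reads per gene are printed from these steps. The lowest value was -2.24 in every library, as an average prior count of 2 gives for 0 reads, so fold changes of low genes are understated. Scaling factors were 0.992 to 1.04 in the female libraries. No column of the table was left unused (0).

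The deposited log2 CPM were tested in R 4.3.3 by limma 3.58.1 (with statmod 1.5.0), with 1 coefficient per group, a mean-variance trend, two-sided p-values and Benjamini-Hochberg adjustment at 0.05. The fit held only the 6 female libraries and genes above 0 log2 CPM in at least 3 of them. Males were fitted in the same way apart, and the difference between the sexes in all 12 libraries, over genes above 0 in at least 3. The fit was tested on simulated data with the same setting for the spread between libraries in both groups. The real spread was larger in YSGr, with a median SD of 0.23 against 0.10 in SG. The simulation therefore does not show how the fit behaves with such unequal groups. With 3 libraries a group an exact permutation test cannot give a p under 0.10.

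Alternatives were other filters, eBayes without trend or robust, all 12 libraries, library weights, prior counts of 0.5 and 5, centred or unscaled libraries, limma-voom on estimated reads, and each library left out. The leave-one-out fits of the males were added after the data were seen. The members and the 40 gene lists were chosen with earlier results of these data known.

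The genes named are Yap1 and Wwtr1, the 15 genes past the threshold that changed most in each direction (mean log2 CPM above 1, groups not overlapping, predicted genes left out), up to 6 members per list past the threshold by adjusted p, topped up to 3 by mean level, and 5 per direction of the test between the sexes. A few genes that the rule chose are not reported here. Named outside this rule, after their values were seen, are Stk3, Stk4, Lats1, Lats2, Ccn1, Ccn2, Amotl2, Axl, Mycn, Atoh1, Gfap, Vegfa, Rgs5, Dcn, H2-Ab1, H2-Eb1, S100a8, S100a9, Cd274, Arhgap42, Ackr1 and the lymphocyte genes with 0 to 2 reads. The same holds for some of the Purkinje cell, interneuron and globin genes given under the other observations. Positions are from GENCODE M21 on mm10, which matched 15602 gene names, and promoter sequences are from RefSeq on GRCm38.p6.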

Additional observations from a re-analysis of the deposited data

Results flagged for a closer look

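Hmga1b changed differently in the sexes by the interaction test of all 12 libraries, with a female-minus-male difference of -4.58 (SE 0.29, adjusted p = 1.2e-05 with limma). It was at 92.4 to 96.9 CPM in the SG females and 2.08 to 2.90 CPM in the YSGr females, against 77.6 to 135 CPM in SG males and 57.5 to 70.0 CPM in YSGr males. The near-identical Hmga1 had a difference of 1.07 in the opposite direction (adjusted p = 0.43). The 2 genes summed to 222 to 241 CPM in SG females and 186 to 221 CPM in YSGr females. How reads were divided between them was not tested. The test for a single outlying value in a group was not applied, since each group has 3 libraries.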

How the results depend on the processing

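The number of genes that passed in females was 786 (337 higher, 449 lower). It was 506 without a filter on low values (210 higher, 296 lower), 423 with all 12 libraries in the fit (158 higher, 265 lower) and 4439 with library weights (2155 higher, 2284 lower). Leaving out 1 library gave 46 to 2138 genes, 22 to 929 higher and 24 to 1209 lower. With fewer samples a fit has fewer degrees of freedom, but the count rose without YSGr 11 or 12, and the cause was not tested. Under the other 8 settings it was 636 to 816. The test between the sexes gave 1 gene, 675 with library weights and 1 to 115 with a library left out. Males gave 325 genes, and 35 to 221 with a library left out. Yap1 passed under every alternative, at -4.53 to -4.00. Of 164 named genes the 129 that passed kept their sign under every alternative. Signs turned in 16 cases, all in genes that did not pass. With library weights these were Top2a at 0.13, Pkm at -0.038, Rpl4 at -0.14 and Ttr at -0.22, and Rpl4 gave -0.0002 with centred and -0.018 with unscaled libraries. With 1 library left out the change ran from -0.19 to 0.073 for Csf1r, from -0.19 to 0.0048 for Jak2, from -0.22 to 0.39 for Cd47, from -0.14 to 0.057 for Cdk4, from -0.29 to 0.23 for Top2a, from -0.15 to 0.096 for Rpl4 and from -1.01 to 0.40 for Itpr1. The causes were not tested. No paired analysis was possible because the replicate numbers run from 1 to 12 without repeats.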

Other observations

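Pcp2, Calb1 and Car8, genes of Purkinje cells, had 1065, 1428 and 1593 reads in YSGr 11, against 95 to 439, 177 to 449 and 197 to 413 in the other 5 female libraries. Without YSGr 11 the median change of the 16 tested Purkinje cell and interneuron genes was -1.04 rather than -0.17, and 12 of them passed as lower. In the same library Itpr1, the calcium channel of Purkinje cells, was at 8.94 log2 CPM and in the others between 6.11 and 7.30. Pvalb, a calcium-binding protein of Purkinje cells and interneurons, was at 6.90 there and at 4.49 to 5.87 in the others.

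Ttr, transthyretin of the choroid plexus, was uneven in both groups, with 6.71 to 7.80 log2 CPM in SG and 6.68, 9.50 and 8.50 in YSGr. Of 13 ependymal, choroid plexus and erythroid genes tested 1 passed, Clic6 at -1.34 (adjusted p = 0.028, limma). The globin genes Hba-a1, Hba-a2, Hbb-bs and Hbb-bt gave -1.21, -1.52, -1.51 and -1.59 and did not pass. Pkm and Gapdh, enzymes of glycolysis, gave 0.13 and 0.39 (adjusted p = 0.60 and 0.11). The kinase gene Jak2 gave -0.11, and Ifngr2, a chain of the interferon gamma receptor, gave 0.11. The ribosomal genes Rplp0 and Rpl4 gave -0.39 and 0.01 in females and -1.16 and -0.76 in males, with 0.43 as the adjusted p of both differences between the sexes.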
